A study of Mus musculus with 15 samples.

Results

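The insulin and IGF axis set held 10 genes chosen by name, and all 10 were found by symbol among the 43629 genes listed for the 15 whole-brain libraries and passed the filter on low counts that 15864 genes passed. They were the ligands Igf1 and Igf2, the receptors Igf1r and Insr, the receptor substrates Irs1 and Irs2, the binding proteins Igfbp2, Igfbp4 and Igfbp5, and the transcription factor Foxo1. The mice were wild-type male C57BL/6J animals, and each library came from the whole brain of a different mouse. The groups were 4 young mice with ad libitum access to food (AL), 3 young mice on every-other-day feeding (EOD, called intermittent fasting in the labels), 4 old AL mice and 4 old EOD mice. Young mice were 3 months and old mice 24 months of age. EOD was started in young adulthood in both age classes, so it was brief in the young mice and nearly lifelong in the old mice, and the study's methods place data collection on mornings that follow a feeding day unless another time is named, without naming a time for the brains. A single strain and sex and undissected brains limit what the groups can stand for. The comparisons ask whether the genes of this axis differ between old and young brains, between EOD and AL brains, and whether the age difference depends on the diet.

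Insulin and the insulin-like growth factors bind related receptor tyrosine kinases on the cell surface. The activated receptors phosphorylate the IRS docking proteins, which recruit PI3-kinase and switch on AKT. AKT holds FoxO transcription factors outside the nucleus and releases mTORC1 from inhibition, so feeding and growth signals reach transcription and protein synthesis through the same chain. Secreted IGF-binding proteins hold IGFs in the extracellular space and set how much reaches the receptors. Reduced signalling through this axis lengthens life in worms, flies and mice, and fasting lowers circulating insulin and IGF1. In the brain, IGF1 is made by neurons and glia, whereas IGF2 comes largely from the leptomeninges, the choroid plexus and vessels.

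The libraries held 5198748 to 13610729 gene-assigned reads (median 9886766). The library of the third young AL mouse stood apart: it had the highest total but the fewest genes with a read (17280, against 19054 to 20880 in the other 14 libraries), and its median correlation with the other libraries across genes was 0.957, against 0.980 to 0.987 for the rest. The main age or diet difference of each member is therefore given with and without it. Brain markers were abundant in every library, with the neuronal gene Snap25 at 3501 to 4669 CPM (counts scaled to a fixed library total). Markers of some structures that a dissection can include or lose varied much more. Those of the leptomeninges varied less than these, with sums of 97.5 to 159 CPM. The summed choroid plexus markers ran from 337 to 1238 CPM with all 7 genes detected, and those of olfactory bulb output neurons from 7.70 to 103 CPM. Pituitary markers summed to 1039 CPM in the fourth old AL mouse and to at most 18.2 CPM in the other 14 mice, with Lhb at 0 in all 15.

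9 of the 10 members had at least 1 RefSeq promoter window on GRCm38.p6 (13 windows in all, with 4 for Igf2 and 2 for Igfbp2), and the 250 bases upstream of each start were searched. No window was available for Insr, so its promoter was not searched. The insulin response sequence through which FoxO factors act on liver genes (CAAAACAA, either strand) stood in the windows of Irs1 and Irs2 and in no other window of the members, and 2.21% of all 32851 promoter windows held it. The E-box CACGTG, read the same on both strands, stood in the windows of Irs1, Irs2 and 1 window of Igfbp2, against 6.02% of all windows. The FoxO element GTAAACA (either strand) was in none of the 13 windows, against 3.17% of all. The upstream stretches of Irs1 and Irs2 are shown because they share both motifs, and that of Igfbp5 because Igfbp5 was the member whose age difference came nearest to the threshold. Capitals mark the E-box and the insulin response sequence, which overlap nowhere in these windows. The windows are 5′ to 3′ on the minus strand of chr1:82291440-82291689 (Irs1), chr8:11008930-11009179 (Irs2) and chr1:72874866-72875115 (Igfbp5).
Irs1: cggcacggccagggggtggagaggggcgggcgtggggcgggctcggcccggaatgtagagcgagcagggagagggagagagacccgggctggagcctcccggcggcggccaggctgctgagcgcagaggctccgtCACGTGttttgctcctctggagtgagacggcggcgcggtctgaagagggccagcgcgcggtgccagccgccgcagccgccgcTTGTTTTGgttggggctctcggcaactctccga
Irs2: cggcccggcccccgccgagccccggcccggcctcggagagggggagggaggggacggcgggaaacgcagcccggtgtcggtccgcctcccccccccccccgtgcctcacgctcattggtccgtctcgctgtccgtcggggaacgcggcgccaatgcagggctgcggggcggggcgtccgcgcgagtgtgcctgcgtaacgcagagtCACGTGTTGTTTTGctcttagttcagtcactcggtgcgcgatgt
Igfbp5: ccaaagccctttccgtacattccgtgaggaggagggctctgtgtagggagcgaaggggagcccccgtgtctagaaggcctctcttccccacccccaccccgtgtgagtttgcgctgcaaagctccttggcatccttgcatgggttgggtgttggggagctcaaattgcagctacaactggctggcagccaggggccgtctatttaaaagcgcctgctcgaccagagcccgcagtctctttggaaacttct
In Irs1 the E-box began 115 bases and the insulin response sequence 33 bases before the start, and in Irs2 they abutted, beginning 44 and 38 bases before it. Guanine and cytosine made up 72.4% of the Irs1 stretch, 72.8% of the Irs2 stretch and 58.8% of the Igfbp5 stretch. A match in these letters is a description of the sequence and does not show a bound site.

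Per kilobase of exon, Igfbp5 RNA was the most abundant of the 10 members in every mouse and Igf1 RNA was at the bottom of the order by median. The median level over the 15 mice, in CPM per kilobase of exon (RPKM), was 36.6 for Igfbp5, 16 for Igf2, 13.9 for Igfbp2, 11.8 for Igfbp4, 7.16 for Insr, 5.49 for Igf1r, 4.66 for Foxo1, 4.14 for Irs2, 2.34 for Irs1 and 1.85 for Igf1. The secreted binding proteins and Igf2 thus lay above both receptors. Both receptors (lowest 5.64 RPKM for Insr and 3.24 RPKM for Igf1r) lay above Irs1 (highest 2.91 RPKM) in every mouse. They lay above Irs2 by median only. In the fourth young AL mouse Irs2 reached 7.61 RPKM, above the highest value of Igf1r (6.99 RPKM). The lowest mouse for Igfbp5 (28.9 RPKM) lay above the highest for Igf2 (20.8 RPKM), the lowest for Igfbp4 (10.4 RPKM) above the highest for Insr (8.01 RPKM), and the lowest for Irs2 (3.05 RPKM) above the highest for Irs1 (2.91 RPKM). The ranges of all other neighbours in this order overlapped, although Igf2 exceeded Igfbp2 in 14 of 15 mice and Irs1 exceeded Igf1 in 13 of 15. Foxo1 and Irs2 could not be ordered, since Foxo1 was higher in 9 of 15 mice.

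**Figure D1:**
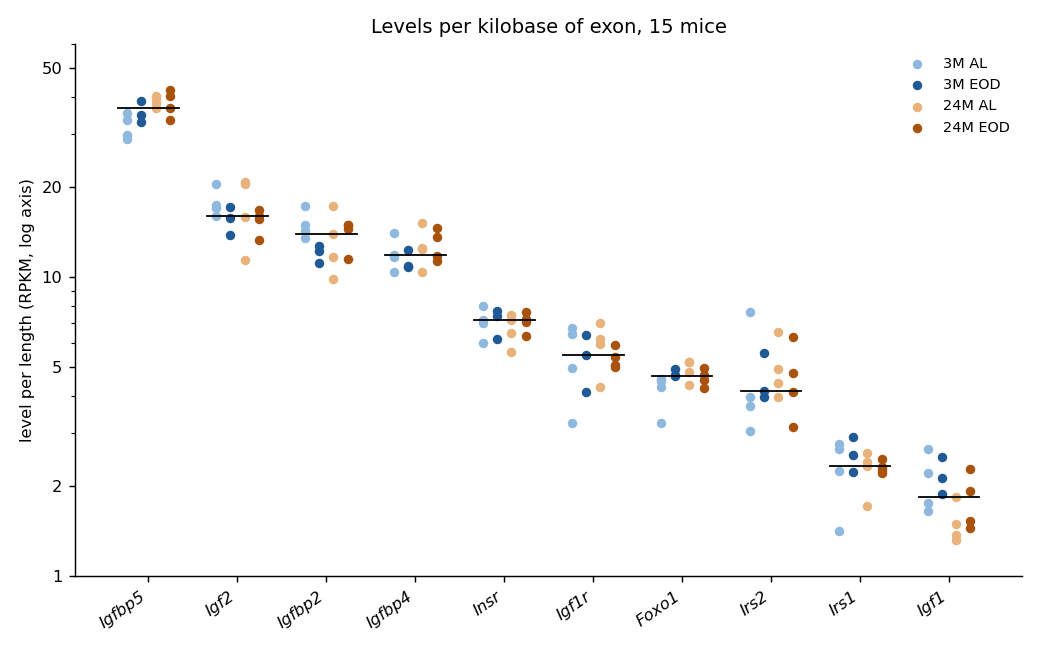
Levels of the 10 genes per kilobase of exon (RPKM, log axis) in all 15 mice, coloured by group, with a black bar at the median. Igfbp5 (median 36.6 RPKM) lies apart from the rest, and the 15 values of any gene span at most 2.49-fold.

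Spread between mice differed among the members. Irs2 was the most variable, with a coefficient of variation of 27.6% over the 15 mice and 2.49-fold between the highest and the lowest, followed by Igf1 at 22.3% and Igf1r at 19.2%. Insr was the least variable at 9.75%, a 1.42-fold range. At this spread and with 3 or 4 mice per group, the 95% confidence interval of a difference between groups of the same age or diet reached, at the median over the members, 0.29 to 0.31 on the log2 scale to either side of the estimate.

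None of the 10 members passed a false discovery rate (FDR, Benjamini-Hochberg over all tested genes) of 0.1 in any of the 7 comparisons of edgeR's quasi-likelihood test. For age averaged over the diets 2.3% of all genes passed, and the counts of members and of all genes at an unadjusted p under 0.05 were 2 members (Igf1 and Igfbp5) and 11.7% of genes. In AL mice alone 1.09% of genes passed, with 3 members (Igf1, Igfbp5 and Foxo1) and 9.52% of genes under 0.05 unadjusted. In EOD mice alone 0.29% of genes passed, with 0 members and 5.74% of genes under 0.05 unadjusted. The median log2 fold change of the members for age averaged over diets was 0.02, with 5 members above and 5 below 0, beside -0.005 over all genes. Some glial markers, but not all of each list, were higher in old mice in the same libraries. Summed microglial markers stood at 293 to 331 CPM in the young and 359 to 406 CPM in the old mice, with 3 of 5 past the threshold and higher in old mice, and summed astrocyte markers at 1385 to 1614 CPM in the young and 1590 to 1794 CPM in the old mice, with 1 of 5 past it. Summed oligodendrocyte markers stood at 5408 to 6513 CPM in the young and 5993 to 7106 CPM in the old mice, with 1 of 5 past the threshold and higher in old mice. Among the astrocyte markers Gfap ran from 131 to 174 CPM in young and from 283 to 403 CPM in old mice. The young and old ranges of Aqp4, Gja1, Aldh1l1 and Slc1a3 overlapped. In the oligodendrocyte list Mbp ran from 1513 to 2136 CPM in young and from 2048 to 2729 CPM in old mice. Mog leaned the other way, at 84.3 to 109 CPM in young and 81.1 to 95.6 CPM in old mice. The part of these shifts in the members' values was not tested. In whole-brain RNA, fewer cells of a type and less RNA per cell cannot be told apart.

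**Figure D2:**
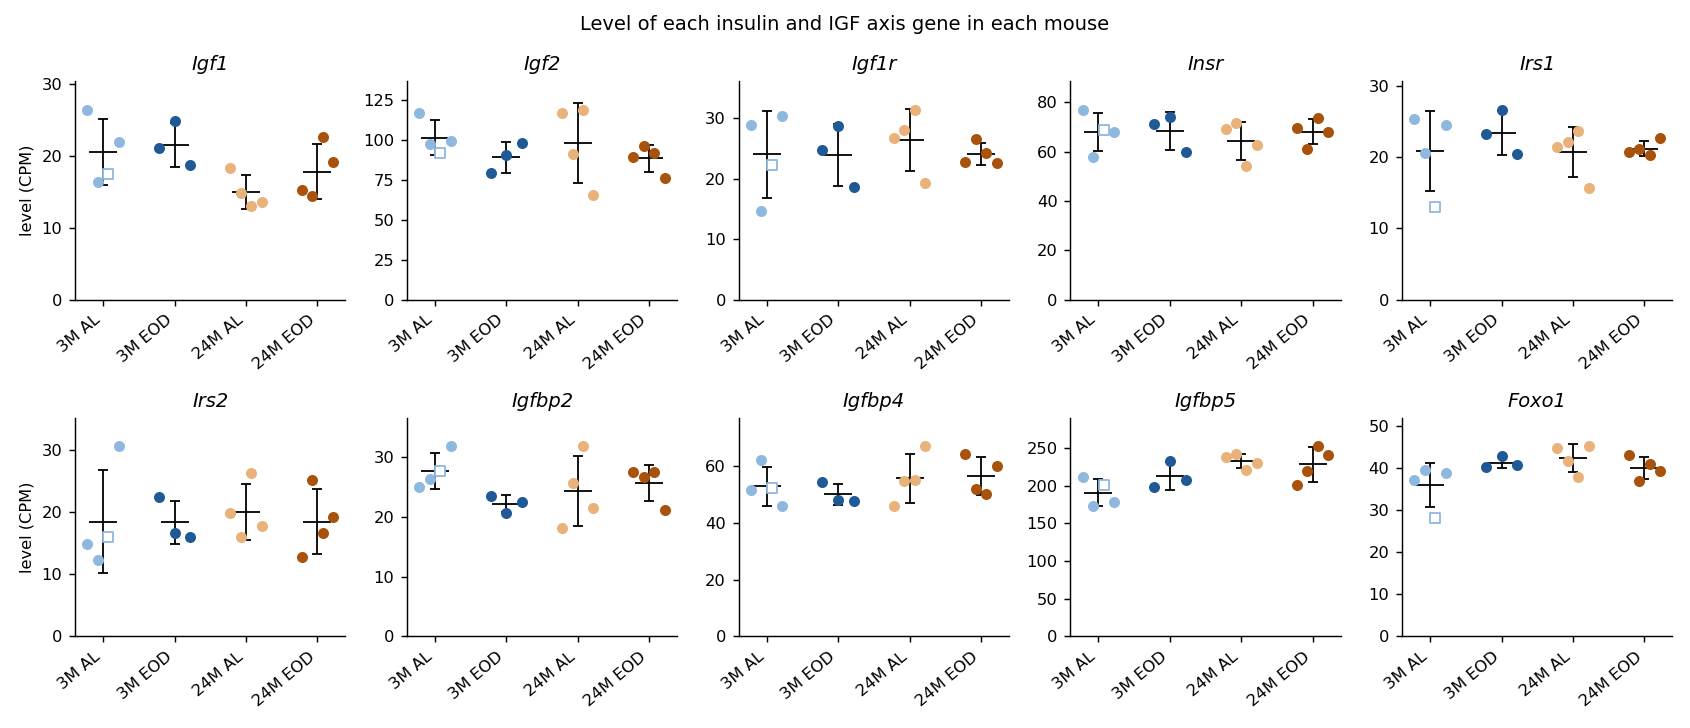
Level (CPM, linear axis from 0) of each gene in each mouse, by group, with the mean as a horizontal bar and the SD as an error bar. The open square is the third young AL mouse. Igfbp5 sits higher in the 4 old AL mice (221 to 242 CPM) than in the 4 young AL mice (173 to 211 CPM), and the groups of the other 9 genes overlap between ages within the AL diet.

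Of the ligands, Igf1 was the member with the largest age difference in size, and the age classes overlapped. Igf1 encodes the growth factor whose circulating form comes from the liver under growth hormone. Its level was 26.4, 16.4, 17.4 and 21.9 CPM in the young AL mice and 21.0, 24.8 and 18.7 CPM in the young EOD mice. It was 18.3, 14.8, 13.1 and 13.6 CPM in the old AL mice and 15.2, 14.3, 22.6 and 19.0 CPM in the old EOD mice. The old mice had a median of 15 CPM (n = 8) and the young mice 21.0 CPM (n = 7), but replicate 1 of the old AL mice and replicates 3 and 4 of the old EOD mice lay within the young range. The log2 fold change of old over young mice averaged over diets was -0.36 (SE 0.12, 95% confidence interval -0.61 to -0.10, FDR 0.205), and without the third young AL mouse it was -0.39 (SE 0.12, FDR 0.149). In AL mice alone it was -0.45 (SE 0.17, FDR 0.362) and in EOD mice alone -0.27 (SE 0.18). With the sequencing lane as a covariate the values were -0.41 (SE 0.17) in AL and -0.40 (SE 0.20) in EOD mice. DESeq2 gave an FDR of 0.175 for the averaged difference. A more permissive filter that kept every gene with at least 1 read gave an FDR of 0.0479, with Igf1 and Igfbp5 among the 2.49% of all genes called, and was the single setting of 24 that took Igf1 past the threshold. Over all alternatives its FDR ran from 0.0479 to 0.445 for the averaged difference, with log2 fold changes of -0.42 to -0.28. In AL mice the FDR ran from 0.118 to 0.723, with log2 fold changes of -0.56 to -0.30. Between diets the log2 fold change of EOD over AL was 0.07 (SE 0.18) in young and 0.25 (SE 0.17) in old mice, with 95% intervals of -0.30 to 0.44 and -0.11 to 0.60, and without the third young AL mouse it was -0.0043 (SE 0.18) in the young. The gene lies on chromosome 10 at 87858265 to 87937042 (GRCm38, plus strand), and its listed antisense gene Igf1os had no read.

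Igf2, a fetal growth factor that stays expressed in the coverings of the adult brain, did not differ detectably with age or diet. Its level was 117, 97.0, 91.5 and 99.2 CPM in the young AL mice and 78.9, 90.3 and 98.2 CPM in the young EOD mice. In the old AL mice it was 117, 90.8, 119 and 65.4 CPM, so that this group alone spanned the whole range of the series, and in the old EOD mice 89.4, 95.9, 91.6 and 76.2 CPM. The log2 fold change for age averaged over diets was -0.03 (SE 0.10, 95% interval -0.24 to 0.18) and for EOD averaged over ages -0.16 (SE 0.10, 95% interval -0.37 to 0.05). The EOD mean was below the AL mean at both ages, at 89.1 ± 9.71 CPM (SD, n = 3) against 101 ± 11 (SD, n = 4) in young mice and 88.3 ± 8.51 (SD, n = 4) against 98.0 ± 25.2 (SD, n = 4) in old mice. These differences were within the spread between mice. Without the third young AL mouse the age difference of Igf2 was -0.05 (SE 0.10) and the EOD difference -0.18 (SE 0.10). Igf2 lies on chromosome 7 at 142650766 to 142666816 (minus strand) beside the insulin gene Ins2, which had at most 8 reads in a library, so insulin RNA was not part of the measured axis.

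Igf2 levels varied together with markers of the tissues that make it, as far as a few mice carried the relation. After removal of the group means and without the third young AL mouse (n = 14), Pearson's r between log2 Igf2 and the mean log2 level of 8 leptomeningeal markers was 0.744 and Spearman's rho 0.495, with exact permutation p-values within groups of 0.0470 and 0.139. For 7 choroid plexus markers r was 0.696 and rho 0.569, with exact permutation p-values of 0.0229 and 0.0647. Adjusted over the 50 relations computed, the values for r were 0.294 and 0.286, so neither passed. Without the 2 mice farthest from the median of the markers r dropped to 0.313 and 0.357, and the relation rests on those mice. With all 15 mice r was 0.753 and 0.608, and with the lane means also removed it was 0.806 and 0.466, and single lanes, with 4 to 6 of the 15 mice, were too small for values of their own. The same markers gave r values of 0.0674 and 0.207 with Igfbp2.

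**Figure D3:**
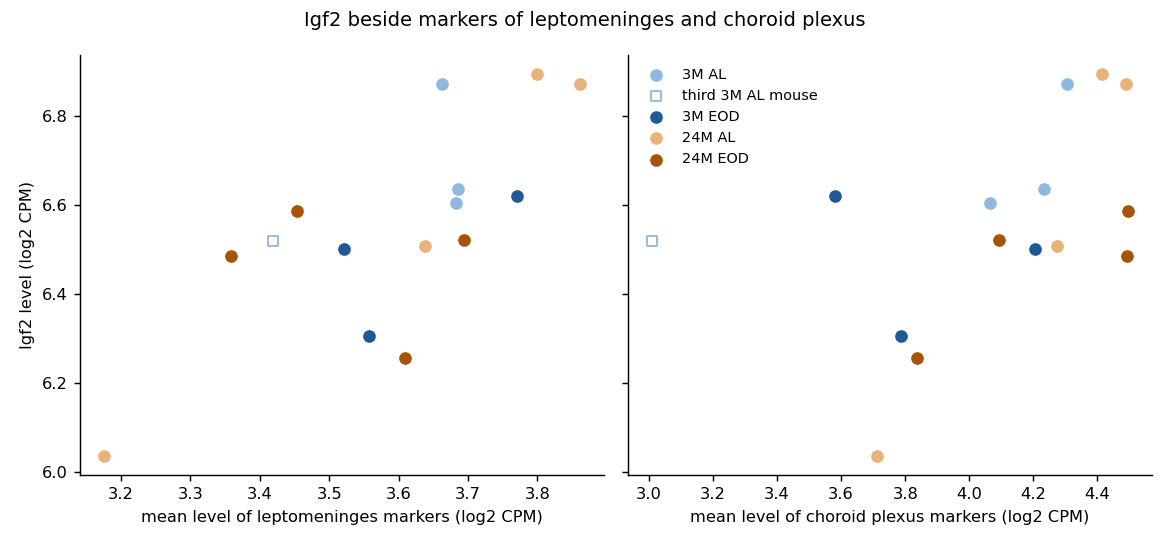
Igf2 level (log2 CPM) against the mean level (log2 CPM) of leptomeningeal markers on the left and of choroid plexus markers on the right, 1 point per mouse. The fourth old AL mouse is lowest in Igf2 and in leptomeningeal markers (summed 97.5 CPM), and the third young AL mouse (open square) is lowest in choroid plexus markers (summed 337 CPM).

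The receptor genes did not separate any groups. Insr, the insulin receptor gene, lay at 77.1, 58.0, 69.0 and 67.9 CPM in young AL, 71.2, 74.3 and 59.9 CPM in young EOD, 69.3, 71.6, 54.3 and 62.6 CPM in old AL and 69.6, 61.2, 73.6 and 68.0 CPM in old EOD mice. All 4 groups overlapped. Its age difference averaged over diets was -0.04 on the log2 scale (SE 0.07, 95% interval -0.19 to 0.12) and its diet difference averaged over ages 0.04 (SE 0.07, 95% interval -0.11 to 0.20), the tightest intervals after those of Igfbp5, and without the third young AL mouse they were -0.03 (SE 0.08) and 0.05 (SE 0.08). Igf1r, which encodes the receptor that carries most IGF1 and IGF2 signalling, lay at 28.9, 14.6, 22.2 and 30.3 CPM in young AL, 24.6, 28.7 and 18.5 CPM in young EOD, 26.7, 28.0, 31.4 and 19.2 CPM in old AL and 22.8, 26.5, 24.2 and 22.5 CPM in old EOD mice. The second young AL mouse was lowest and the old EOD mice were the most alike (24.0 ± 1.83 CPM, SD, n = 4). Igf1r had a log2 fold change of 0.06 for age (SE 0.14, 95% interval -0.22 to 0.35) and -0.06 for EOD (SE 0.14, 95% interval -0.35 to 0.22), and without the third young AL mouse 0.05 (SE 0.14) and -0.08 (SE 0.14).

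Irs1 and Irs2, the docking proteins downstream of both receptors, did not separate age or diet groups. Irs1 stood at 25.3, 20.6, 12.9 and 24.4 CPM in young AL, 23.2, 26.7 and 20.4 CPM in young EOD, 21.4, 22, 23.6 and 15.7 CPM in old AL and 20.7, 21.2, 20.3 and 22.6 CPM in old EOD mice. Its lowest value came from the library that stands apart, and without it the young AL mean was 23.5 ± 2.50 CPM (SD, n = 3) in place of 20.8 ± 5.65 (SD, n = 4). Averaged over diets the age difference of Irs1 was -0.08 (SE 0.12, 95% interval -0.33 to 0.18) with that library and -0.16 (SE 0.09) without it, and the EOD difference in young mice was 0.17 (SE 0.18) with and -0.0059 (SE 0.14) without it. Irs2 stood at 14.9, 12.3, 16 and 30.6 CPM in young AL, 22.4, 16.7 and 16 CPM in young EOD, 19.9, 16, 26.3 and 17.8 CPM in old AL and 12.7, 25.3, 16.7 and 19.2 CPM in old EOD mice. The fourth young AL mouse was far above the others of that group, and the intervals of Irs2 were the widest of the set, from -0.33 to 0.41 for age and from -0.43 to 0.31 for EOD on the log2 scale. Its differences were 0.04 (SE 0.18) and -0.06 (SE 0.18), and without the third young AL mouse 0.0046 (SE 0.18) and -0.09 (SE 0.18). The gene Gm9747, listed on the strand opposite Irs1, had 8.89 to 14.5 CPM, and reads of such a pair are kept apart only by the strand setting of the counting.

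The binding proteins held the member nearest to an age call. Igfbp5, which encodes a secreted protein that binds IGFs and the extracellular matrix, stood at 211, 173, 200 and 179 CPM in the young AL and 238, 242, 221 and 230 CPM in the old AL mice. Every old AL mouse was thus above every young AL mouse, a separation shown by 4.56% of all tested genes and by no other member. In EOD mice it was 198, 233 and 208 CPM at the young and 201, 220, 252 and 241 CPM at the old age, and these groups overlapped. In EOD mice 0 members and 9.04% of all genes had groups that did not overlap, and over all old against all young mice 0 members and 0.901% of genes. The log2 fold change of Igfbp5 was 0.29 in AL mice (SE 0.08, 95% interval 0.12 to 0.45, FDR 0.142), or 21.9% higher in the old, and 0.10 in EOD mice (SE 0.09, 95% interval -0.08 to 0.29, FDR 0.991). Averaged over diets it was 0.19 (SE 0.06, 95% interval 0.07 to 0.32, FDR 0.139). The difference between the diets' age effects was -0.18 (SE 0.12, 95% interval -0.43 to 0.07), and it did not pass. Without the third young AL mouse the averaged value was 0.21 (SE 0.06, FDR 0.102) and the value in AL mice 0.32 (SE 0.09, FDR 0.138). The call depended on the tool, the filter and single mice. DESeq2 put Igfbp5 past the threshold for age averaged over diets (FDR 0.0684, as 1 of 10 members and 2.65% of all genes) and in AL mice (FDR 0.0585, as 1 of 10 members and 1.36% of genes). With every gene of at least 1 read kept, edgeR gave 0.0458 for the averaged difference and 0.0308 in AL mice, where 1 member and 1.69% of all genes passed. Without the first young AL mouse, the highest of its group, the FDR was 0.0714 and 0.0633, and without the first old EOD mouse, the lowest of its group, 0.0773 for the averaged difference. Over all alternatives of edgeR and DESeq2 its FDR ran from 0.0458 to 0.348 for the averaged difference and from 0.0308 to 0.302 in AL mice, with every log2 fold change above 0.

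No age difference was detected for Igfbp2 or Igfbp4. Igfbp2, abundant in the choroid plexus and leptomeninges, stood at 24.9, 26.3, 27.6 and 31.8 CPM in young AL and 23.4, 20.6 and 22.5 CPM in young EOD mice. All 3 young EOD mice were below all 4 young AL mice, and 4.45% of all genes had such a separation in either direction. In the old mice the ranges lay over each other, at 18.2, 25.7, 31.8 and 21.5 CPM on AL and 27.5, 26.6, 27.4 and 21.2 CPM on EOD. Its log2 fold change of EOD over AL was -0.32 in young mice (SE 0.15, 95% interval -0.63 to -0.0015, FDR 0.996) and 0.10 in old mice (SE 0.14, 95% interval -0.19 to 0.39), and the interaction was 0.42 (SE 0.21, 95% interval -0.01 to 0.84), not past the threshold. The young difference was -0.32 (SE 0.16) without the third young AL mouse as well. Igfbp4, whose product inhibits IGF action until proteases cleave it, stood at 51.5, 62.0, 52.1 and 45.8 CPM in young AL, 54.3, 48.1 and 47.7 CPM in young EOD, 45.8, 54.9, 55.2 and 67.0 CPM in old AL and 64.2, 52.0, 50.1 and 59.9 CPM in old EOD mice. The groups overlapped throughout, and the age difference averaged over diets was 0.13 (SE 0.09, 95% interval -0.05 to 0.31), with the same value to 2 decimals and SE 0.09 without the third young AL mouse. Igfbp2 (chromosome 1, 72824503 to 72852474, plus strand) and Igfbp5 (chromosome 1, 72857932 to 72874884, minus strand) are neighbours that point at each other with 5457 bases between them. Across the 14 mice their values after removal of the group means had an r of -0.416 (exact permutation p adjusted over the 50 relations 0.432).

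Foxo1, the transcription factor that insulin signalling keeps inactive, showed a difference that shrank without a single library. It stood at 37.2, 39.5, 28.3 and 38.8 CPM in young AL and 40.4, 42.8 and 40.7 CPM in young EOD mice. All 3 young EOD mice were above all 4 young AL mice, and 4.45% of all genes had such a separation in either direction. In old AL mice it was 44.9, 41.7, 37.8 and 45.2 CPM and in old EOD mice 43.1, 36.9, 40.9 and 39.3 CPM, with overlap. The log2 fold change of old over young was 0.25 in AL mice (SE 0.10, 95% interval 0.03 to 0.46, FDR 0.432) and -0.04 in EOD mice (SE 0.11). The EOD difference in young mice was 0.20 (SE 0.11, 95% interval -0.03 to 0.43). Without the third young AL mouse, the lowest of the series, the age difference in AL mice was 0.15 (SE 0.09) and the EOD difference in young mice 0.10 (SE 0.09), and the young AL mean moved from 35.9 ± 5.22 (SD, n = 4) to 38.5 ± 1.16 CPM (SD, n = 3).

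No member passed the threshold for EOD, and in the edgeR fit of the 15864 filtered genes no gene did. The share of all genes past FDR 0.1 was 0% for diet averaged over ages, for diet in young mice, for diet in old mice and for the interaction of age and diet, in this fit. At an unadjusted p under 0.05 the counts were 0 members and 4.51% of genes for diet averaged over ages, 1 member (Igfbp2) and 4.14% of genes in young mice, 0 members and 2.58% of genes in old mice, and, as the interaction, 0 members and 2.28% of genes. DESeq2 called 0 members in these 4 comparisons, and 1 gene in all, for diet in young mice. With every gene of at least 1 read kept, edgeR called 26 to 65 genes in these comparisons, and with the sequencing lane as a covariate 2 genes for diet in old mice, in both settings again 0 members. Groups that did not overlap in CPM were seen for 2 members (Igfbp2 and Foxo1) and 4.45% of genes between the diets in young mice, and for 0 members and 2.59% of genes in old mice. Each 95% interval covers 1 gene in 1 comparison of whole-brain RNA, and together the intervals give no joint bound over the set. Averaged over ages, the 95% interval of the EOD difference of any member lay within -0.43 to 0.42 on the log2 scale, in young mice within -0.63 to 0.55 and in old mice within -0.61 to 0.60. Each age comparison within a diet shares a group of mice with each diet comparison within an age, so the age and diet values are not independent of each other.

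**Figure D4:**
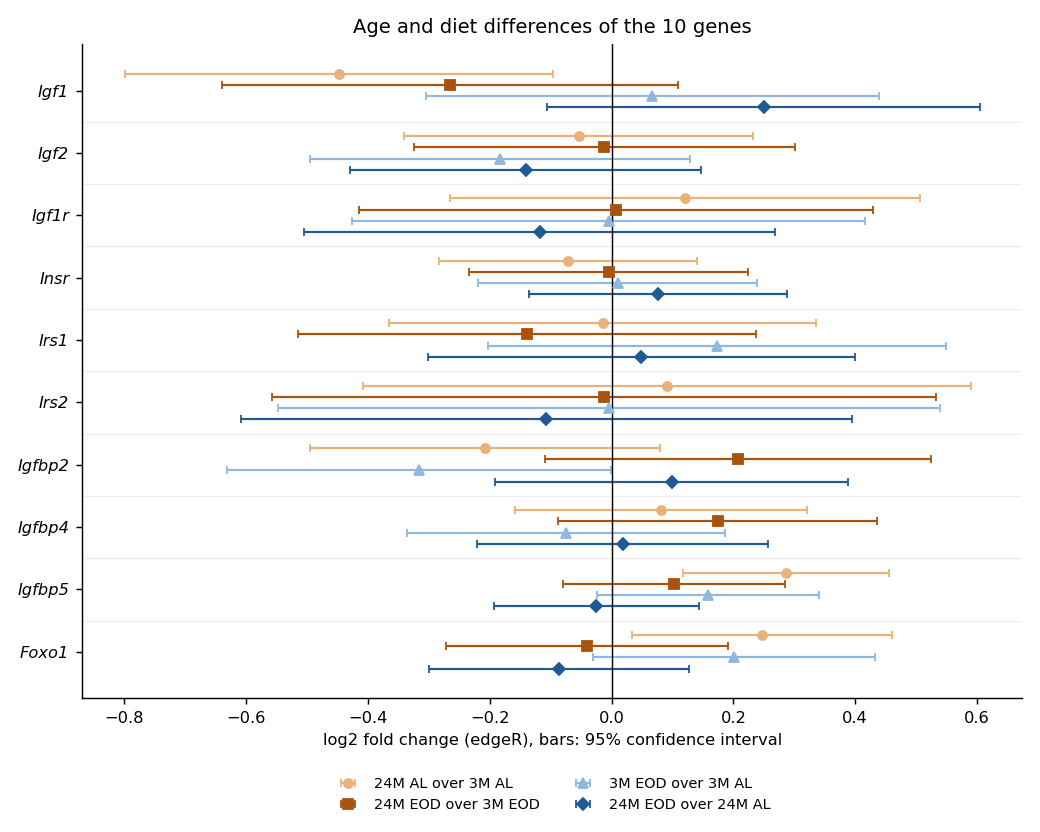
Log2 fold changes of the 10 genes from edgeR with 95% confidence intervals for age within each diet and for diet within each age, and a vertical line at 0. The intervals of Igf1, Igfbp5 and Foxo1 for age in AL mice and that of Igfbp2 for diet in young mice do not include 0, and none of these passed FDR 0.1.

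Of 88 other genes of the insulin and IGF pathway, 76 passed the filter, and 2 passed FDR 0.1 with age: Igfbpl1 and Gab1. This is 1 gene higher and 1 lower in old mice of the 76, for age averaged over diets (2.3% of all genes passed) and again in AL mice (1.09%), and 0 in EOD mice, with no gene for diet or the interplay of both. At an unadjusted p under 0.05 were 10 of the 76 for age averaged over diets, beside 11.7% of all genes, 9 in AL mice beside 9.52%, and 2 in EOD mice beside 5.74%. For diet there were 5 averaged over ages, in young and in old mice each, beside 4.51%, 4.14% and 2.58% of all genes, and for the interplay of age and diet 3 beside 2.28%. The median log2 fold change of the 76 for age averaged over diets was -0.02, beside -0.005 over all genes. The 12 genes under the filter included the insulin genes, with Ins1 at 0 in every library, and Igfbp1, the liver binding protein that fasting induces, with at most 1 read in a library.

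Igfbpl1, which encodes an IGF-binding protein-like factor of immature neurons, fell with age. Its level was 2.05, 2.38, 3.85 and 3.85 CPM in young AL and 1.44, 2.24 and 4.21 CPM in young EOD mice. In old mice it was 0.995, 1.18, 0.757 and 0.588 CPM on AL and 1.68, 0.797, 1.93 and 1.25 CPM on EOD. All old AL mice were below all young AL mice, whereas 2 old EOD mice were above the lowest young EOD mouse. A separation of the ages in AL mice, in either direction, was shown by 4.56% of all genes. Its log2 fold change was -1.33 averaged over diets (SE 0.29, FDR 0.0173), -1.81 in AL mice (SE 0.41, FDR 0.0340) and -0.86 in EOD mice (SE 0.41, FDR 0.866), with an interaction of 0.95 (SE 0.58) that did not pass. Without the third young AL mouse the averaged value was -1.26 (SE 0.28, FDR 0.0200) and that in AL mice -1.68 (SE 0.41, FDR 0.0588). The averaged call was lost without the third young EOD mouse, the highest of the series (-1.06, FDR 0.107), and the call in AL mice without replicate 3 (FDR 0.119) or replicate 4 of old AL (FDR 0.163). With the olfactory bulb markers as a covariate, chosen after seeing the data, the averaged value was -1.28 (FDR 0.0222) and the value in AL mice missed the threshold (-1.54, FDR 0.169).

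Gab1, a docking protein that links receptor tyrosine kinases to PI3-kinase and SHP2, rose with age. It stood at 29.8, 26.9, 19.8 and 29.7 CPM in young AL and 40.9, 37.5, 41.2 and 32.3 CPM in old AL mice, with no overlap. In EOD mice it was 35.9, 33.7 and 27.9 CPM at the young and 36.1, 38.9, 37.6 and 36.2 CPM at the old age, where the old mice also lay above the young. Ages without overlap, in either direction, were seen for 4.56% of all genes in AL mice and 9.04% in EOD mice. Averaged over diets its log2 fold change was 0.35 (SE 0.09, FDR 0.0521) and 0.52 in AL mice (SE 0.12, FDR 0.0496). The lowest value again came from the third young AL mouse, and without it the averaged value was 0.30 (SE 0.07, FDR 0.0438) and that in AL mice 0.40 (SE 0.11, FDR 0.109), which missed the threshold. The averaged call also ended when replicate 2 or 3 of young EOD, replicate 1 or 3 of old AL or replicate 2 of old EOD was left out (FDR 0.105 to 0.154), and the call in AL mice without replicate 2 of young AL or replicate 1, 2 or 3 of old AL (FDR 0.101 to 0.197). The call in AL mice was lost as well with the olfactory bulb markers as a covariate (FDR 0.137) and with only the groups compared in the fit (FDR 0.221). In EOD mice the log2 fold change was 0.19 (SE 0.13), not past the threshold.

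Apart from Igfbpl1 among the binding partners and Gab1 among the adaptors, no gene of a pathway group passed the threshold for age averaged over diets. The other genes given here are those that complete the 3 with the smallest p for that comparison in each group, or the single tested one. Among binding partners, Htra1, a secreted protease, had a log2 fold change of 0.21 (SE 0.08, FDR 0.265) and Ide, the insulin-degrading enzyme, 0.27 (SE 0.12, FDR 0.377). Igf2r, the receptor that clears IGF2, stood at 0.02 (SE 0.10). Of the adaptors, Sh2b2 stood at 0.53 (SE 0.22) and Shc1 at 0.27 (SE 0.14). In the PI3-kinase and AKT group the values were 0.13 (SE 0.06) for the AKT phosphatase gene Phlpp1, -0.13 (SE 0.06) for the regulatory subunit gene Pik3r3 and -0.11 (SE 0.05) for Gsk3b, a kinase that AKT inhibits. This group had a median of -0.04 over 17 genes. The mTORC1 group had values of 0.09 (SE 0.06) for its inhibitor Tsc1, -0.08 (SE 0.06) for the S6 kinase gene Rps6kb1 and -0.14 (SE 0.11) for the translation repressor gene Eif4ebp2. The other FoxO genes stood at 0.11 (SE 0.10) for Foxo4, -0.01 (SE 0.05) for Foxo3 and 0.02 (SE 0.27) for Foxo6. Among FoxO target genes the values were -0.32 (SE 0.11, FDR 0.181) for Sesn2, a stress-induced restraint on mTORC1, -0.34 (SE 0.14) for Bcl2l11, which promotes apoptosis, and 0.22 (SE 0.11) for Klf15, a regulator of amino acid use in fasting, with a median of -0.02 over 18 genes.

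**Figure D5:**
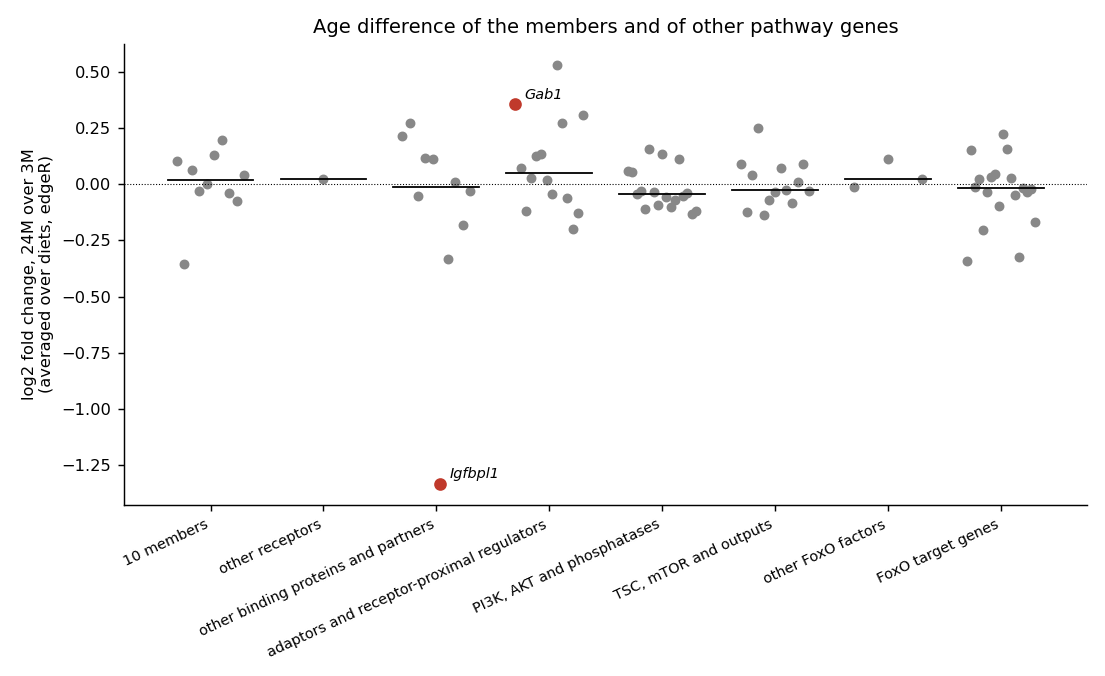
Log2 fold change of old over young mice averaged over diets (edgeR) for the 10 members and for the other tested pathway genes by role, 1 point per gene with a black bar at each group's median. Red points passed FDR 0.1: Gab1 at 0.35 and Igfbpl1 at -1.33, while the medians of all groups lie near 0.

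Relations between members were computed over mice of the same group. After removal of the group means over 14 mice, 25 of 45 pairs of members had an r above 0, and 0 of the 45 passed an adjusted permutation p of 0.05. The closest pairs were Igf1r with Irs1 (r = 0.826, rho = 0.780, exact permutation p adjusted 0.109), Igf1 with Igfbp5 (r = 0.816, rho = 0.815, exact permutation p adjusted 0.124) and Igf1 with Insr (r = 0.811, rho = 0.754, exact permutation p adjusted 0.109). Without the 2 mice farthest from the median these were 0.783, 0.706 and 0.767, and with all 15 mice 0.558, 0.708 and 0.763.

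The genes whose levels most resembled those of the growth factors and binding proteins were sought among 14124 genes, by Pearson's r over the same 14 mice after removal of the group means. For Igf1 they were Gm38020 (r = 0.970), Mdm4 (0.963) and Mpp5 (0.954). For Igf2 they were Zmynd12 (0.909), Cd44 (0.879) and Lepr (0.874). Igfbp2 was followed by Dcp1b (0.926), Jup (0.920) and Golga2 (0.905), Igfbp4 by Mgll (0.90) and Lamp5 (0.886), and Igfbp5 by Mid2 (0.901), Ift80 (0.894) and Chpt1 (0.890). These are the highest of a large number of values over few mice. Library depth and markers of dissected structures differed between the mice, and their part in these values was not tested. With the third young AL mouse included the r values ranged from 0.687 for Golga2 to 0.948 for Mpp5.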

How the data were processed

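Whole-brain RNA of 15 mice was sequenced by the authors as 50-base single reads, aligned with STAR to GRCm38 and counted with featureCounts 1.5.0-p1 on Ensembl release 79 (file headers: reverse-stranded, primary alignments, mapping quality of at least 5). The deposited values are raw read counts per gene, with totals of 5198748 to 13610729 per mouse. Groups and replicate numbers came from the labels. The members and gene lists were chosen with earlier results of these data known. Genes passing edgeR's filterByExpr (15864) were scaled by TMM and fitted with edgeR 4.0.16 (R 4.3.3), as quasi-likelihood models with a mean for each of the 4 groups and 7 contrasts. The FDR threshold was 0.1, and DESeq2 1.42.0 was an alternative. CPM are TMM-scaled, and log2 CPM have a prior count of 2. RPKM divide CPM by the length in the files. On counts simulated for age averaged over diets with 15864 genes, 68% of 50 genes changed 1.5-fold and 94% of 50 changed 2-fold were recovered, with 16 false calls. Files of replicates differed beyond sampling noise (chi-square per degree of freedom at least 3.04 in 21 pairs). Promoter windows came from RefSeq on GRCm38.p6, whose starts can differ from the Ensembl gene ends. The genes named were all 10 members, pathway genes past the threshold or the 3 of each group with the smallest p for age averaged over diets, and the 3 genes most like each growth factor and binding protein, of which 1 for Igfbp4 is not reported here. Alternatives were other filters, size factors, tools, an FDR of 0.05, a replicate block, the lane or olfactory bulb markers as a covariate, and leaving out each mouse or the groups not compared.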

Additional observations from a re-analysis of the deposited data

Results flagged for a closer look

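A mouse far from the rest of its group was looked for in 30 sets of 4 mice (10 genes in the 3 groups of 4). In 1 of the 30 sets a value stood out: Igfbp2 in the fourth old EOD mouse, at 21.2 CPM, below the other old EOD mice at 26.6 to 27.5 CPM. The gap to its neighbour was 0.866 of the range of the group, above the critical ratio of 0.829. Chance alone passes this ratio in about 1 set in 20, so 1 such value among 30 sets is not unusual. No member had an age by diet interaction past FDR 0.1.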

How the results depend on the processing

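The number of members past FDR 0.1 was 0 in all 7 comparisons and changed in 2 of them. For age averaged over diets it was 2 with every gene of at least 1 count, 1 with DESeq2 and 1 with DESeq2 without the third young AL mouse, and 0 to 1 when each mouse was left out in turn. For age in AL mice it was 1, 1 and 1 under the same settings and again 0 to 1 without single mice. The number of other pathway genes was 2 in both comparisons. With every gene of at least 1 count it was 4 in both, and it was 1 in place of 0 for the interaction and age in EOD mice (Ddit4) and for EOD averaged over ages and in the young (Tcf7l2). With at least 10 counts in every mouse it was 1 in both, since Igfbpl1 was not tested. At FDR 0.05 it was 1 for age averaged over diets. With only the groups compared it was 1 for age in AL mice and 1 for age in EOD mice. With the olfactory bulb markers as a covariate it was 0 for age in AL mice. Leaving out each mouse gave 0 to 2 in both age comparisons. The causes of these changes were not tested, apart from the loss of a gene to a filter. The replicate numbers did not pair the mice: same-numbered mice had correlations of -0.113 to 0.113 and the replicate block left 0 members and 2 pathway genes past the threshold for age averaged over diets, and the same in AL mice. Of 1720 values of the members under the alternatives, 1710 kept their side of the threshold and 10 passed it, and 112 changed sign where the value in the report was within 1 SE of 0, which gives it no direction. With all 15 mice 1 of the 3 genes most like Igf2, Igfbp2, Igfbp4 and Igfbp5 was shared. Depth limits Igfbpl1, which had 4 to 51 reads per mouse, and among the members Igf1 had the fewest reads in a mouse (69).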

Other observations

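Ddit4 and Pik3ip1, both listed as pathway genes and named after their values were seen, had the opposite sign of EOD difference at the 2 ages without passing FDR 0.1. Ddit4, an inhibitor of mTORC1 that energy stress and glucocorticoids induce, averaged 25.6 ± 5.12 CPM (SD, n = 4) in young AL and 36.1 ± 1.21 CPM (SD, n = 3) in young EOD mice, and all 3 young EOD mice were above all young AL mice (34.7 to 37.0 against 22.4 to 33.2 CPM). Such a separation of the diets in young mice, in either direction, was shown by 4.45% of all genes. In old mice it averaged 30.3 ± 8.66 CPM (SD, n = 4) on AL and 25.9 ± 3.21 CPM (SD, n = 4) on EOD. The interaction was -0.70 on the log2 scale (SE 0.24), with an FDR of 0.0856 with every gene of at least 1 count kept, and not past 0.1 in the edgeR fit of the report.

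Pik3ip1, whose product restrains PI3-kinase, averaged 28.1 ± 2.54 CPM (SD, n = 4) in young AL, 31.5 ± 2.94 CPM (SD, n = 3) in young EOD, 33.7 ± 0.929 CPM (SD, n = 4) in old AL and 27.3 ± 1.51 CPM (SD, n = 4) in old EOD mice. Every old EOD mouse (26.2 to 29.5 CPM) was below every old AL mouse (32.7 to 34.8 CPM), as 2.59% of all genes were separated in old mice in either direction. The log2 fold change in old mice was -0.31 (SE 0.09) and the interaction -0.47 (SE 0.14), neither past FDR 0.1.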
